A study of Mus musculus with 6 samples.

Results

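The cytosolic ribosomal protein genes encode the proteins of the ribosome that translates nuclear-encoded messages. They were taken by name, as the entries Rpl or Rps followed by a number and at most 1 letter, together with Rplp0, Rplp1, Rplp2, Rpsa and Rpl36al. Of 23850 gene entries, 81 carried such a name and 79 were kept, 48 of the large (60S) and 31 of the small (40S) subunit, because their mean reached 1 FPKM over the 6 libraries. FPKM gives sequenced fragments scaled for transcript length and for the total of the library. The pair not kept were Rpl10l, listed at 0 in every library, and Rpl3l, whose mean was 0.0782 FPKM. The kept members nearest to the threshold were Rpl39l, with a mean of 4.66 FPKM, and Rps27, with 8.41 FPKM. Ribosomal genes named otherwise, such as Rps3a1, Fau and Gnb2l1, fell outside the rule.

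The cells were in vitro generated germinal center B cells from mice of genotype wild type on the C57BL/6J background, started as naive follicular B cells. Of the 6 cultures, 3 received CHIR99021 (3 uM), which inhibits the kinase GSK3, for 36 h, and 3 received DMSO, its solvent, beside which the labels print the same 3 uM. Every culture had first spent 4 days on CD40L-expressing feeders in IL-4 (1 ng/ml), and the treatment took place on these feeders in IL-21 (10 ng/ml). The triplicates are called biological, with the way they were started and the purification of the cells not given in the sources used here. All 8 B cell marker genes of a list and all 6 germinal centre B cell markers were measured in every group. Summed, the B cell markers reached 3435 to 4002 FPKM with CHIR99021 and 5763 to 7665 FPKM with DMSO, and 7 of the 8 fell, while 1 of the 6 germinal centre markers fell and none rose. In a fit with the replicate number as a block, 7 B cell markers fell, and 2 germinal centre markers (Fas and Bcl6) fell and 1 (Gcsam) rose. Over all tested genes, 8.13% rose and 13.3% fell without the block, and 18.4% and 24.4% with it.

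Each ribosome needs a single copy of nearly every one of these proteins, so their genes are expressed at high and similar levels in growing cells. Their messages begin with a run of pyrimidines (the 5′ terminal oligopyrimidine, or TOP, motif), through which the mTORC1 kinase and the protein LARP1 control how strongly they are translated. Activated and germinal centre B cells are known for rapid growth and high ribosome production, and GSK3 is known as a kinase that restrains growth and metabolism in them.

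The sequence around the start of transcription is shown for 8 members, because the starts of the members are compared with all promoters below. The 8 were chosen among members called above or below the family's median in a fit with replicate blocks (described with the changes). In each, the annotated RefSeq start (GRCm38.p6) coincides with the edge of the deposited gene span. Not every member that met both conditions is shown, so these windows do not compare members above the median with those below. The windows cover 15 bases on either side of the start. They come from chr17:24720048-24720077 (Rps2), chr9:120571502-120571531 (Rpl14), chr2:32961697-32961726 (Rpl12), chrX:74270801-74270830 (Rpl10), chr7:4792950-4792979 (Rpl28), chr1:72711245-72711274 (Rpl37a), chr7:116334176-116334205 (Rps13) and chrX:134585639-134585668 (Rpl36a), the first 4 from members above the family's median change with CHIR99021 and the last 4 from members below it. Rps13 lies on the minus strand and the other 7 on the plus strand, and capitals mark a run of 6 or more C or T that reaches within 5 bases of the start.
Rps2: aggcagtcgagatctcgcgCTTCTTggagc
Rpl14: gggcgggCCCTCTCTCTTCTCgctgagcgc
Rpl12: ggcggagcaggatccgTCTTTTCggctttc
Rpl10: gttgttacagtggaagataggccgcctata
Rpl28: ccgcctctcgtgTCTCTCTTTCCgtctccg
Rpl37a: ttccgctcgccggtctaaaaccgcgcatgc
Rps13: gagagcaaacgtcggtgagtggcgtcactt
Rpl36a: gtgcacccaggcaccgcctataaacttccg

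Of the 79 members, 59 had a promoter in the RefSeq table and 20 did not. A pyrimidine run as above lay at the start of 29 of the 59 (49.2%), against 20.2% of all 32851 promoters of the same length. Each member gave a single promoter, the one nearest the edge of its span. The 32851 were counted without such a choice or a filter on expression, and they include the members, so these shares are not matched. The ETS-family motif CCGGAAG, searched on both strands over 250 bases before and 50 after the start, lay in 25 of the 59 (42.4%) and in 8.86% of all promoters. The YY1-type motif AAGATGGC lay in 4 of the 59 (6.78%) and 2.75% of all promoters, and the TATA-type motif TATAAA in 5 (8.47%) and 13.6%. Runs were found in 19 of the 40 members with a promoter that rose in a fit with replicate blocks (described with the changes) and in 10 of the 19 others, and CCGGAAG in 17 of the 40 and 8 of the 19. Annotated starts are often a few bases from the start a cell uses, so a window without a run says only that these letters are not in it.

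The 79 genes held a large part of all FPKM. Their share of the summed FPKM was 36.5%, 32.3% and 35.8% in CHIR99021 replicates 1, 2 and 3, and 33.0%, 29.0% and 31.8% in DMSO replicates 1, 2 and 3. The mean was 34.8 ± 2.22% with CHIR99021 and 31.3 ± 2.02% with DMSO (SD, n = 3 each). The ranges of the 2 groups overlapped, with CHIR99021 replicate 2 below DMSO replicate 1, while each CHIR99021 library lay above the DMSO library of the same number, by 3.50, 3.30 and 3.98 percentage points. The summed FPKM of the members with CHIR99021 was 1.10, 1.18 and 1.15 times that with DMSO in pairs 1, 2 and 3, and the summed FPKM of all other entries was 0.946, 1.01 and 0.963 times. In bulk RNA, more ribosomal protein mRNA per cell and a different mix of cells cannot be told apart.

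**Figure D1:**
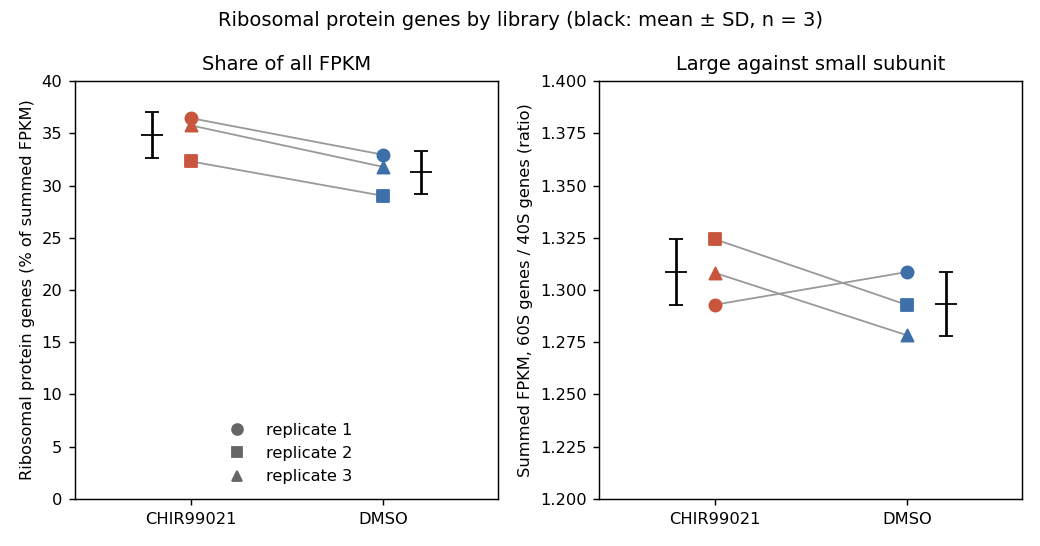
Share of the summed FPKM held by the 79 ribosomal protein genes (left, %) and the ratio of summed 60S to summed 40S FPKM (right), by library, with grey lines joining equal replicate numbers and black bars showing mean ± SD of 3 libraries. Every line on the left runs lower in DMSO, by 3.30 to 3.98 points, while the ratio on the right lies between 1.28 and 1.32.

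The split between the subunits differed little between libraries. The 60S genes made up 56.4%, 57.0% and 56.7% of the members' FPKM in CHIR99021 replicates 1, 2 and 3, and 56.7%, 56.4% and 56.1% in DMSO replicates 1, 2 and 3. The ranges overlapped, and the means were 56.7 ± 0.295% with CHIR99021 and 56.4 ± 0.288% with DMSO (SD, n = 3 each).

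Most members were expressed near the top of the transcriptome, where 64 to 66 of the 100 highest entries of each library were ribosomal protein genes. The median member had a mean of 2183 FPKM over the 6 libraries, 1985 FPKM for 60S and 2749 FPKM for 40S genes. In all, 66 members averaged 1000 FPKM or more, 8 lay between 200 and 1000 FPKM, and 5 lay under 200 FPKM. The highest was Rplp1, which encodes an acidic protein of the P stalk where elongation factors dock, at 8293 FPKM, followed by Rpl41, Rplp2 and Rps12. The lowest were Rpl39l, Rps27, Rpl34 (24.9 FPKM) and Rpl30 (75.5 FPKM). Replicate 2 was the lowest library of its group for 75 members with CHIR99021 and for 77 members with DMSO.

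**Figure D2:**
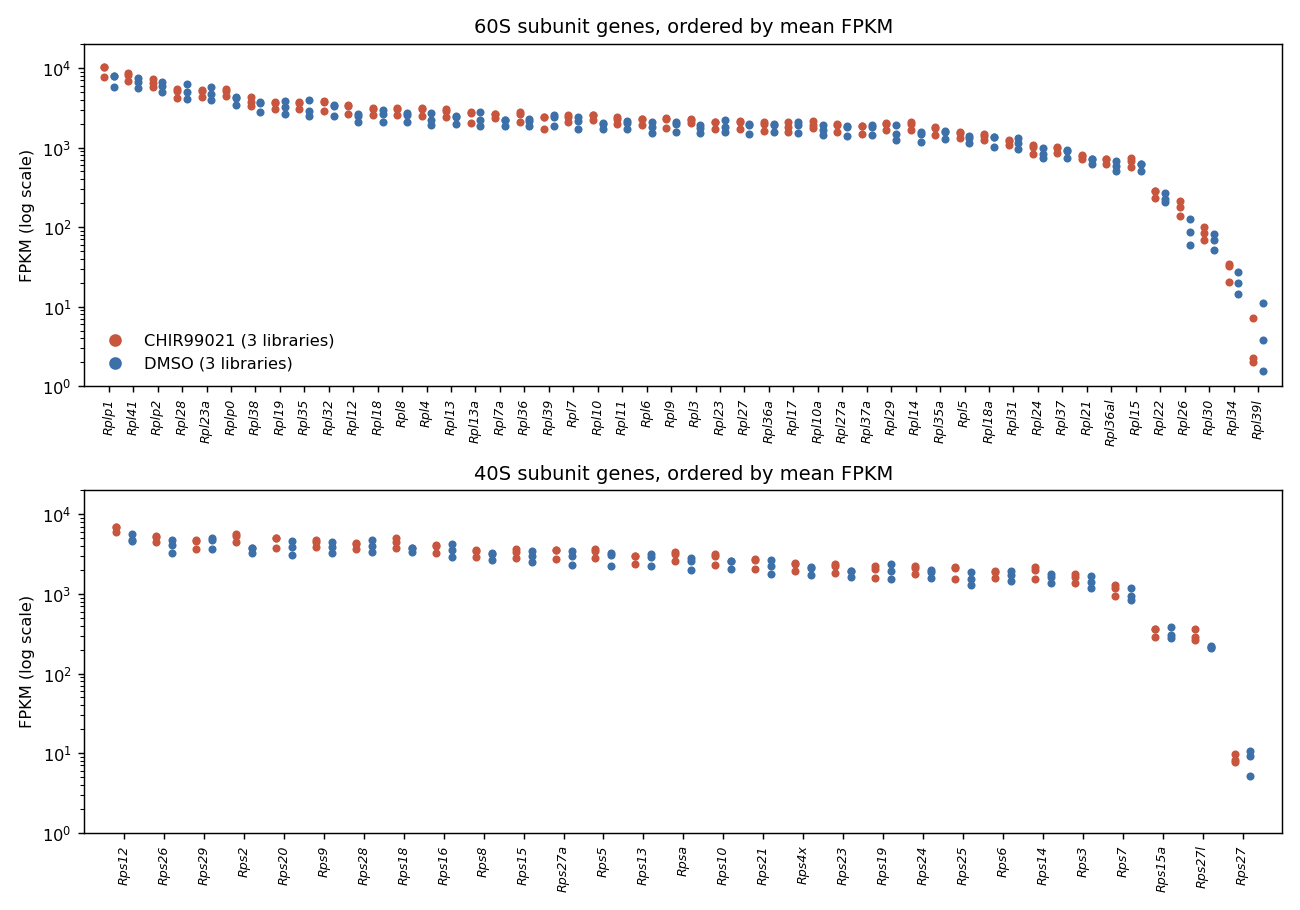
FPKM (log scale) of 77 of the 79 members, 60S (top) and 40S (bottom), in the 3 CHIR99021 libraries (left points of each gene) and the 3 DMSO libraries (right points), ordered by mean FPKM. Of those drawn, 64 lie at 1000 FPKM or more, and the right-hand tail holds the 5 members under 200 FPKM.

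For 4 of the 5 members under 200 FPKM, Rpl26, Rpl30, Rpl34 and Rps27, a second entry of the tables covered at least 90% of the same span, and it carried nearly all the FPKM listed there. Rpl26 lies at chr11:68901566-68904534 (mm10) and the entry Gm15772 at chr11:68901589-68904534. Gm15772 had 4912, 3862 and 4793 FPKM in CHIR99021 replicates 1, 2 and 3, and 4285, 3559 and 4509 FPKM in DMSO replicates 1, 2 and 3. Rpl26 held 1.64% to 5.21% of the sum of both. The corresponding shares were 2.38% to 4.83% for Rpl30 beside Gm12191, 0.871% to 1.52% for Rpl34 beside Rpl34-ps1, and 0.208% to 0.334% for Rps27 beside Gm9846. The GENCODE M21 annotation lists Gm15772, Gm12191 and Rpl34-ps1 as processed pseudogenes on chromosomes 5, 11 and 6, away from the spans the tables give them. The rule that divided fragments between such entries was not given in the sources used here, and the FPKM of these 4 members covers only a small part of what is listed over the gene. In the share of summed FPKM above, the second entries were counted among all other entries. Added to the members, they made that share 38.6%, 34.1% and 37.8% in CHIR99021 replicates 1, 2 and 3. In DMSO replicates 1, 2 and 3 it was then 35.0%, 30.8% and 33.7%.

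**Figure D3:**
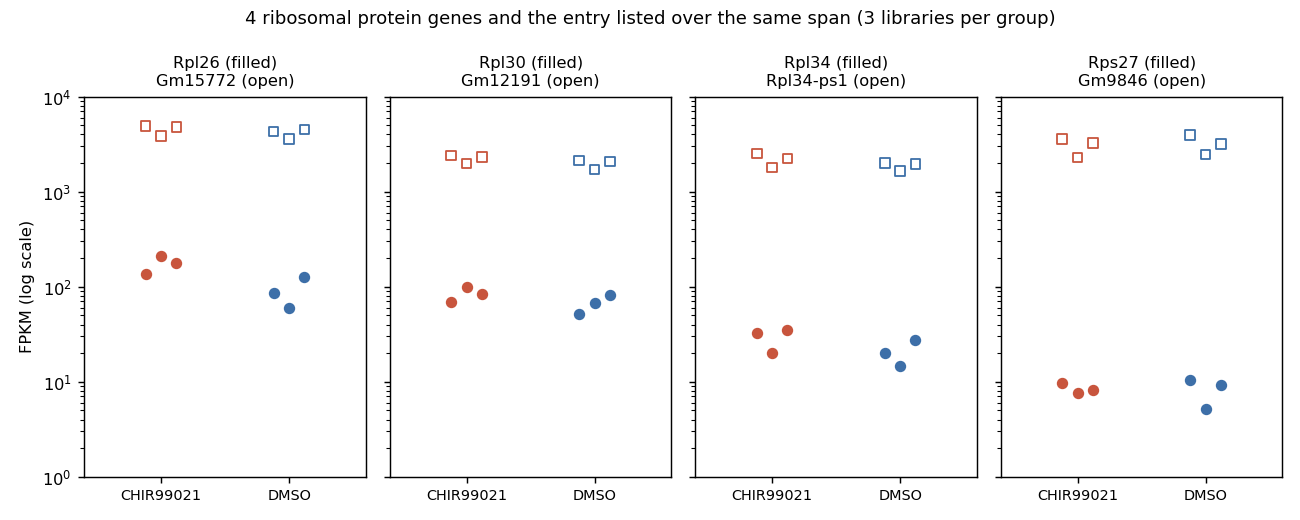
FPKM (log scale) of 4 ribosomal protein genes (filled circles) and of the entry that covers the same span (open squares), with 3 CHIR99021 libraries left of 3 DMSO libraries in each panel. The open squares lie between 1660 and 4912 FPKM in all 4 panels, and the filled circles between 5.14 and 212 FPKM.

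With CHIR99021 most members lay slightly higher than with DMSO. The log2 change, on the log2(FPKM + 1) scale, was positive for 72 of 79 members, as it was for 45.2% of all 10096 tested genes, and it lay between 0 and 0.5 for 70 members (88.6%), as for 38.8% of tested genes. Its median over the members was 0.18 (quartiles 0.12 and 0.27), which corresponds to a 1.13-fold level, beside a median of -0.036 for all tested genes. It was 0.10 to 0.23 under the other scalings of the libraries. It was 0.18 for the 48 genes of the 60S and 0.17 for the 31 genes of the 40S subunit. Taken within pairs of equal replicate number, the members' median change was 0.14, 0.21 and 0.19. In 59 of the 79 members (74.7%) CHIR99021 exceeded DMSO in all 3 pairs, as in 29.3% of all tested genes. Among the 81 other entries averaging at least 500 FPKM, the median change was 0.10. Without DMSO replicate 2, the lowest library, the members' median was 0.062, and without CHIR99021 replicate 2 it was 0.28.

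Single members rarely passed the test across libraries. By limma with Benjamini-Hochberg adjustment over all tested genes, 3 of 79 members (3.8%) rose and none fell at an adjusted p under 0.05, against 8.13% of all tested genes called higher and 13.3% called lower. At an unadjusted p under 0.05, 8 members were higher and 0 lower, beside 15.0% and 20.8% of tested genes. The 2 groups did not overlap for 10 members, all higher with CHIR99021 (12.7%, beside 17.0% of tested genes that lay higher and 23.1% that lay lower). With the replicate number as a block, 52 members rose (65.8%) and none fell, against 18.4% of all tested genes called higher and 24.4% called lower. Among the 81 other entries averaging at least 500 FPKM, 13 rose and 19 fell without the block, and 35 rose and 23 fell with it. The 52 were 33 of 48 in the 60S and 19 of 31 in the 40S subunit, and they included the 3 called without the block. With the block, 0 members were lower at an unadjusted p under 0.05 too, beside 29.6% of tested genes. The median standard error of a member's change was 0.16 without and 0.053 with the block. Without the block, 0 members were called when CHIR99021 replicate 3, DMSO replicate 1 or DMSO replicate 2 was left out, 1 when CHIR99021 replicate 2 or DMSO replicate 3 was, and 2 when CHIR99021 replicate 1 was. Over all tested genes, 821 were called higher with all 6 libraries. That count was 328 without CHIR99021 replicate 3, 511 without DMSO replicate 1 and 708 without DMSO replicate 2. It was 439 without CHIR99021 replicate 2, 506 without DMSO replicate 3 and 619 without CHIR99021 replicate 1.

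**Figure D4:**
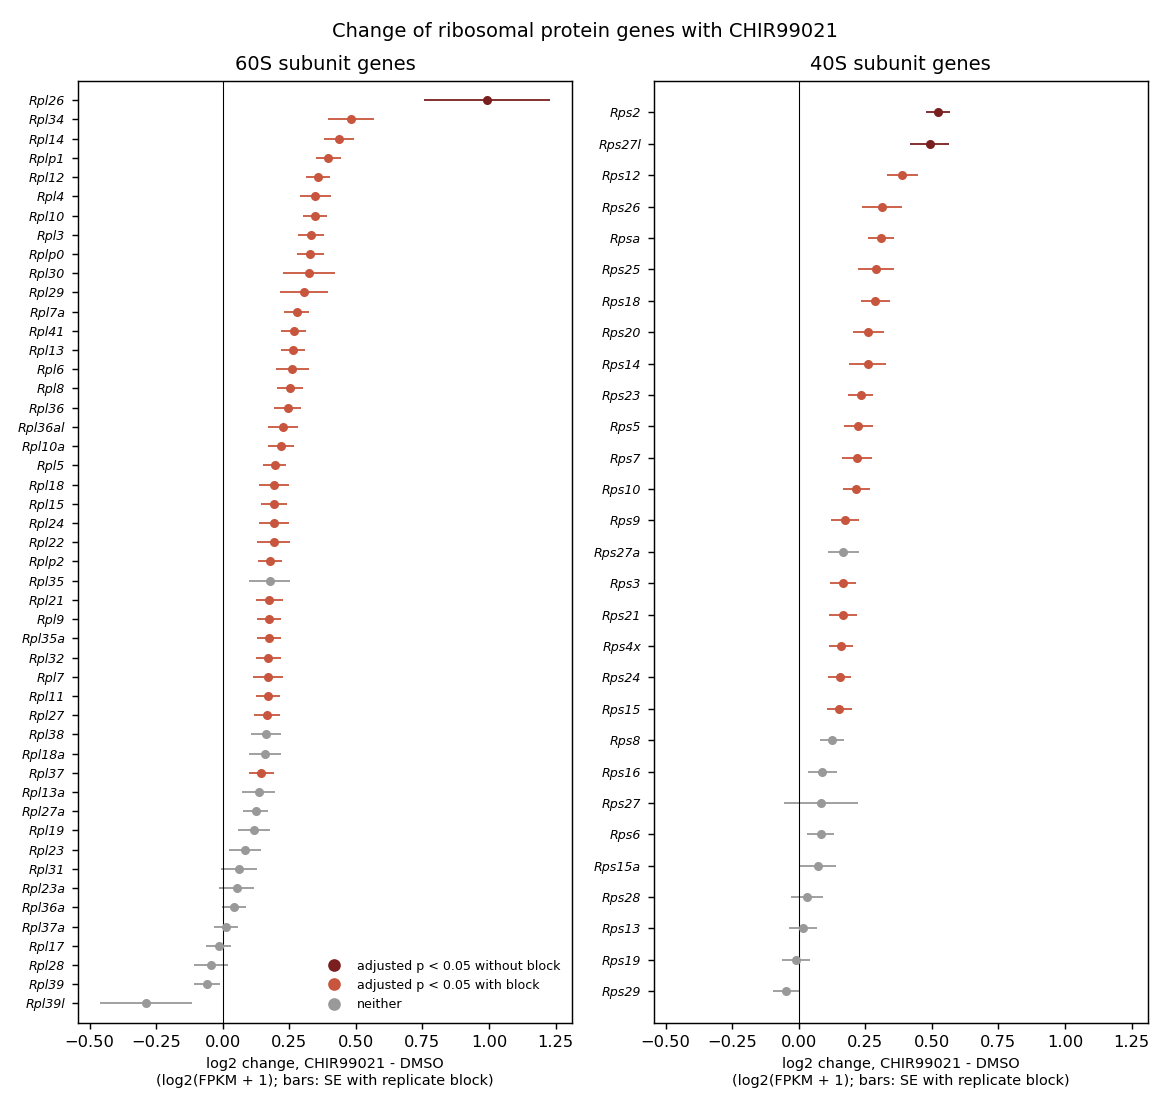
Log2 change of 77 of the 79 members, 60S (left) and 40S (right), CHIR99021 minus DMSO, on the log2(FPKM + 1) scale, with bars for the standard error in the fit with replicate blocks. Dark red marks the 3 members called without the block, light red the further members called with it, and grey the 25 called in neither fit. Of those drawn, the 71 positive changes run up to 0.99, and the 6 negative ones down to -0.29.

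Rps2, at chr17:24720063-24721927 (mm10), encodes a core protein of the 40S subunit near the entry of the mRNA channel. It had 5612, 4560 and 5431 FPKM in CHIR99021 replicates 1, 2 and 3, and 3820, 3243 and 3775 FPKM in DMSO replicates 1, 2 and 3. The groups did not overlap, and the lowest library of each was replicate 2. The mean was 5201 ± 562 FPKM with CHIR99021 and 3613 ± 321 FPKM with DMSO (SD, n = 3 each). Its log2 change was 0.52 ± 0.14 (SE; limma adjusted p = 0.0382, and 0.000318 with the block). Leaving out a replicate gave an adjusted p of 0.0485 without CHIR99021 replicate 2 and of 0.0651 to 0.162 without any other single library. Of the 50-base stretches of its GENCODE transcripts, 56.4% also occur in at least 1 of 71 other genes, and the assignment of such shared fragments was not given in the sources used here.

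Rps27l, at chr9:66946118-66949509, encodes a close paralogue of the 40S protein RPS27 and is known as a p53 target gene. It had 266, 292 and 359 FPKM in CHIR99021 replicates 1, 2 and 3, and 214, 208 and 224 FPKM in DMSO replicates 1, 2 and 3. The groups did not overlap, and the DMSO libraries lay close together. Its log2 change was 0.49 ± 0.12 (SE; limma adjusted p = 0.0235, and 0.00265 with the block). Without CHIR99021 replicate 1 the adjusted p was 0.0212, and without any other single library it lay between 0.0543 and 0.0672.

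Rpl26, a 60S protein near the exit of the peptide tunnel that also binds p53 mRNA, had 136, 212 and 179 FPKM in CHIR99021 replicates 1, 2 and 3, and 86.2, 59.2 and 126 FPKM in DMSO replicates 1, 2 and 3. The groups did not overlap, and replicate 2 was the highest with CHIR99021 and the lowest with DMSO. The change was 0.99 ± 0.27 (SE; limma adjusted p = 0.0364, and 0.0152 with the block), and the adjusted p ran from 0.0193 to 0.121 with a library left out. Summed with Gm15772, the entry over the same span, the change was 0.16 ± 0.16 (limma adjusted p = 0.521, and 0.0349 with the block). The call on the single entry was therefore lost without the block when both entries were added, a step chosen after the values were seen. By the same sum, Rpl30 changed by 0.19 (adjusted p = 0.353, and 0.0153 with the block), Rpl34 by 0.21 (0.369, and 0.0196 with the block) and Rps27 by -0.065 (0.879, and 0.369 with the block).

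The P stalk proteins bind the GTPase factors of translation, with Rplp0 as the base and Rplp1 and Rplp2 as its tail. Rplp1 had 10324, 7742 and 10181 FPKM in CHIR99021 replicates 1, 2 and 3, and 7880, 5689 and 7945 FPKM in DMSO replicates 1, 2 and 3. The groups overlapped only through CHIR99021 replicate 2. Its change was 0.40 ± 0.20 (limma adjusted p = 0.20, and 0.000965 with the block). Rplp0 had 5402, 4502 and 5181 FPKM in CHIR99021 replicates 1, 2 and 3, and 4247, 3428 and 4371 FPKM in DMSO replicates 1, 2 and 3. These groups did not overlap, and the change was 0.33 ± 0.15 (limma adjusted p = 0.168, and 0.00281 with the block). Rplp2 had means of 6560 ± 778 FPKM with CHIR99021 and 5814 ± 797 FPKM with DMSO (SD, n = 3 each), a change of 0.18 (limma adjusted p = 0.503, and 0.0212 with the block) that was -0.035 with quantile normalization.

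Of the other members of highest level, Rps12, a 40S protein of the beak, had 6877, 6024 and 6894 FPKM in CHIR99021 replicates 1, 2 and 3, and 4829, 4675 and 5629 FPKM in DMSO replicates 1, 2 and 3. The groups did not overlap, and the change was 0.39 (limma adjusted p = 0.0958, and 0.00227 with the block). Rpl41, a very short and basic 60S peptide, changed by 0.27 (0.319, and 0.00477 with the block). At the low end, Rpl39l had 7.27, 2.27 and 2.02 FPKM in CHIR99021 replicates 1, 2 and 3, and 11.0, 3.84 and 1.57 FPKM in DMSO replicates 1, 2 and 3. Replicate 1 was the highest in both groups, and the change of -0.29 passed in neither fit (limma adjusted p = 0.778, and 0.218 with the block).

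Rpl5 and Rpl11 join the 5S rRNA in a particle that also binds MDM2. Rpl5 changed by 0.19 (limma adjusted p = 0.295, and 0.0137 with the block) and Rpl11 by 0.17 (0.422, and 0.0229 with the block), both close to the family median, and both higher with CHIR99021 in 3 of 3 pairs. Rpl10, the protein that completes the peptidyl transferase region late in 60S assembly, had 2558, 2194 and 2581 FPKM in CHIR99021 replicates 1, 2 and 3, and 2057, 1727 and 1981 FPKM in DMSO replicates 1, 2 and 3. Its groups did not overlap, and the change was 0.35 (limma adjusted p = 0.0902, and 0.00150 with the block). Rpsa, the laminin receptor precursor that sits on the 40S, changed by 0.31 (0.253, and 0.00301 with the block). Rps27a, made as a fusion with ubiquitin, changed by 0.17 (0.574, and 0.0574 with the block). Rps6, the substrate of the S6 kinases, had 1943, 1596 and 1911 FPKM in CHIR99021 replicates 1, 2 and 3 and 1940, 1472 and 1748 FPKM in DMSO replicates 1, 2 and 3. The Rps6 groups overlapped, and its change of 0.082 (-0.058 with quantile normalization) passed in neither fit (limma adjusted p = 0.737, and 0.225 with the block).

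Some members were called apart from the family median, depending on the fit. To see which departed from it, each library's log2 values were centred on the median of the 79 members, a step chosen after the values were seen, and the same limma fit was repeated over all tested genes. On this scale 3 members were higher and 3 lower at an adjusted p under 0.05, against 1.5% and 12.7% of all tested genes, and with the block 12 were higher and 12 lower, against 8.46% and 45.7%. Centring on the members' own median places members on both sides of it, so the balance of these counts is partly built in. It also moved the median of all tested genes to -0.23, so their shares are no background for departures from the family. All 6 called without the block were called with it. Without the variance trend in limma none of the 6 passed, and there the adjusted p was 0.182 for Rps2, 0.323 for Rpl14, 0.424 for Rplp1 and 0.339 for Rps29.

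Rps2 stood above the family by 0.33 ± 0.051 (SE; limma adjusted p = 0.00191, and 0.000781 with the block), and it stayed below the threshold with each library left out, with adjusted p between 0.00100 and 0.0126. Rpl14, a 60S surface protein, had 1961, 1676 and 2088 FPKM in CHIR99021 replicates 1, 2 and 3, and 1583, 1187 and 1474 FPKM in DMSO replicates 1, 2 and 3, without overlap. It stood above the family by 0.24 (limma adjusted p = 0.0274, and 0.00481 with the block). Rplp1 stood above it by 0.20 (limma adjusted p = 0.0356, and 0.00621 with the block). With a library left out, the adjusted p ran from 0.0284 to 0.168 for Rpl14 and from 0.0224 to 0.160 for Rplp1, in both cases highest without CHIR99021 replicate 3.

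Rps29, at chr12:69157722-69159186, encodes a small zinc-binding 40S protein. It had 4767, 3649 and 4606 FPKM in CHIR99021 replicates 1, 2 and 3, and 4834, 3639 and 5029 FPKM in DMSO replicates 1, 2 and 3. The groups overlapped, and CHIR99021 was higher in 1 of 3 pairs. Its own change of -0.048 passed in neither fit (limma adjusted p = 0.889, and 0.481 with the block), and relative to the family it stood at -0.24 ± 0.057 (SE; limma adjusted p = 0.0192, and 0.00442 with the block). Leaving out single libraries, the adjusted p ran from 0.0106 to 0.0816 and was highest without CHIR99021 replicate 3. The 3 members called lower without the block were 40S genes, whereas the 12 called lower with it were 6 of the 60S and 6 of the 40S genes. The 12 called higher with it were 9 of the 60S and 3 of the 40S genes.

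**Figure D5:**
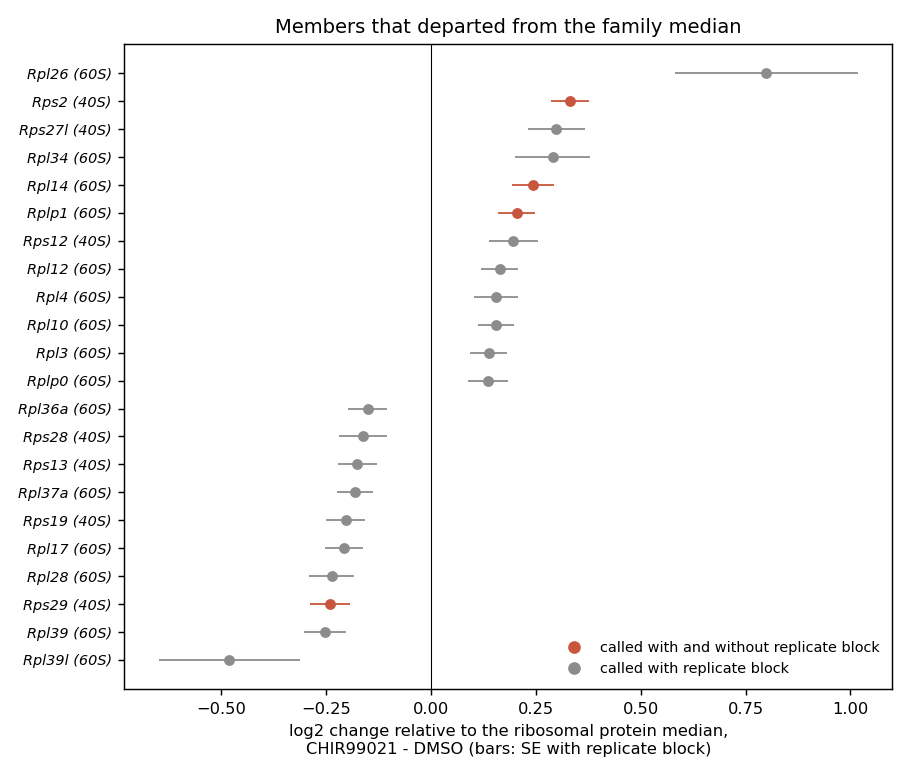
Log2 change relative to the median of the 79 ribosomal protein genes, CHIR99021 minus DMSO, for 22 of the 24 members called with replicate blocks on that scale, with bars for the standard error in that fit. Among those drawn, red marks the 4 called with and without the block, Rps2, Rpl14 and Rplp1 above 0 and Rps29 below 0. The 12 positive and 10 negative members lie on both sides of 0, as centring on the members' own median favours.

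Members were compared by features that the naming rule did not use. The 14 members on chromosome 7, more than on any other chromosome, had a median change of 0.11, and the 65 others had 0.19. With the block, 5 of the 14 and 47 of the 65 rose. The 4 members on chromosome X had a median change of 0.10, and 2 of them rose with the block. Other genes of these chromosomes were not compared. The share to set beside these and the following block counts is the 18.4% of all tested genes called higher. Of the members, 21 had a snoRNA entry inside the gene, with a median change of 0.17, against 0.18 for the 58 without, and 12 of 21 against 40 of 58 rose with the block. Copies of these genes are common in the mouse genome, so at least 1 stretch of 50 bases recurred in another gene for 77 of the 79 members. The median member shared 35.9% of its stretches, and Rpl35 the most (95.1%). The 26 members sharing at least 50% had a median change of 0.23, with 18 rising with the block, and the 53 others had 0.17, with 34 rising.

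Paralogues were set beside their parents by their FPKM as a percent of the parent's. Rpl36al, an autosomal copy of the X-linked Rpl36a, was at 34.4%, 38.7% and 37.3% of Rpl36a in CHIR99021 replicates 1, 2 and 3, and at 29.6%, 32.6% and 34.9% in DMSO replicates 1, 2 and 3. The ranges overlapped, and the value was higher with CHIR99021 in each of the 3 pairs. Rps27l was at 7.38%, 12.7% and 11.0% of the sum of Rps27 and Gm9846 with CHIR99021, and at 5.42%, 8.43% and 7.06% with DMSO, overlapping as well and also higher in each of the 3 pairs. Rpl39l, the testis-enriched copy of Rpl39, was at most 0.458% of Rpl39 in every library, and Rpl22l1, the paralogue that RPL22 represses, was at 116 ± 11.4% of Rpl22 with CHIR99021 and 137 ± 8.95% with DMSO (SD, n = 3 each), lower in each of the 3 pairs and without overlap. Rpl7l1 was at 2.48 ± 0.184% of Rpl7 with CHIR99021 and 2.78 ± 0.267% with DMSO, lower in each of the 3 pairs with overlapping ranges. None of these ratios was tested. Rps4x changed by 0.16 (limma adjusted p = 0.495, and 0.0278 with the block), Rpl3 by 0.33 (0.103, and 0.00235 with the block), and Rpl22, Rpl7 and Rpl39 by 0.19, 0.17 and -0.060.

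Other ribosomal components changed by -0.051 to 0.23, beside the members' median of 0.18. None of Fau, Gnb2l1, Rpl22l1 and Rpl7l1 passed without the block, where 8.13% of all tested genes rose and 13.3% fell. Gnb2l1, which encodes the 40S scaffold RACK1, changed by 0.23 (limma adjusted p = 0.348, and 0.00959 with the block), and Fau, Rpl7l1 and Rpl22l1 changed by 0.033, 0.0059 and -0.051. Rps3a1, a 40S gene named after its value was seen, changed by 0.055 (limma adjusted p = 0.849).

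Translation elongation factors, whose messages are also of the TOP type, were higher with CHIR99021. Of the 6 in the list, 5 rose without the block (0 to 2 with a library left out) and 6 with it, with a median change of 0.43 beside -0.036 for all tested genes. Calls over all tested genes were 8.13% higher and 13.3% lower without the block, and 18.4% and 24.4% with it. With a library left out, 328 to 708 of the 10096 were called higher, beside 821 with every library. Eef1g, a subunit of the exchange complex that recharges the aminoacyl-tRNA carrier, had 1257, 1072 and 1232 FPKM in CHIR99021 replicates 1, 2 and 3, and 842, 720 and 811 FPKM in DMSO replicates 1, 2 and 3. The groups did not overlap, and the change was 0.58 ± 0.11 (limma adjusted p = 0.00943). Eef2, the translocase, changed by 0.48 (0.0359), Eef1b2 by 0.47 (0.0304) and Eef1d by 0.36 (0.0210). Of 15 other genes with TOP messages, 3 rose and 1 fell (10 and 1 with the block), with a median of 0.24. Npm1, a nucleolar chaperone, rose by 0.76 (limma adjusted p = 0.00277), Pabpc1, the poly(A) binding protein, by 0.57 (0.00564) and Eif4b by 0.41 (0.00698), while Vim fell by 1.63 on the log2 scale (0.0105). Vim had 226, 113 and 108 FPKM with CHIR99021 and 581, 313 and 455 FPKM with DMSO.

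Many genes that build ribosomes rose. The shares to set beside their counts are those of all tested genes, 8.13% higher and 13.3% lower (18.4% and 24.4% with the block). With a library left out, 328 to 708 of the 10096 were called higher, beside 821 with every library. Of 32 factors of 60S assembly, 14 rose and 0 fell without the block (26 and 1 with it), with a median change of 0.38, and 3 to 12 rose with a library left out. Mrto4, a placeholder for Rplp0 in the nascent 60S, rose by 0.65 (limma adjusted p = 0.00817), Wdr12, a partner of Pes1 and Bop1, by 0.60 (0.00598), and Rpf2, which helps load the 5S particle, by 0.55 (0.00606). Of 14 factors of 40S assembly, 4 rose and 0 fell (10 and 0 with the block), with a median of 0.35, and 2 to 5 rose with a library left out. Nob1, the endonuclease that forms the end of 18S rRNA, had 33.7, 36.1 and 33.7 FPKM in CHIR99021 replicates 1, 2 and 3, and 21.4, 20.0 and 18.3 FPKM in DMSO replicates 1, 2 and 3, a change of 0.77 (limma adjusted p = 0.00148) with no overlap. Of 7 dedicated chaperones of ribosomal proteins, 2 rose and 0 fell (4 and 0 with the block), Heatr3 by 0.48 (0.0110) and Grwd1 by 0.39 (0.0449). Of 14 genes of the RNA polymerase I machinery, 4 rose and 1 fell (8 and 2 with the block), and 0 to 4 rose with a library left out. Among them Polr1b rose by 0.68 (limma adjusted p = 0.0317) and Rrn3 by 0.45 (0.0132), and Taf1b fell by 0.33 on the log2 scale (0.0480).

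Upstream genes gave a mixed picture. Again, 8.13% of all tested genes were called higher and 13.3% lower (18.4% and 24.4% with the block). With a library left out, 328 to 708 of the 10096 were called higher, beside 821 with every library. Of 10 genes of mTORC1 control of TOP translation, 2 rose and 1 fell (3 and 1 with the block), with a median of 0.090, and 0 to 1 rose with a library left out. Pdcd4, an inhibitor of the helicase eIF4A that the S6 kinases mark for destruction, had 1.22, 1.34 and 0.866 FPKM in CHIR99021 replicates 1, 2 and 3, and 6.76, 7.06 and 9.42 FPKM in DMSO replicates 1, 2 and 3. It fell by 2.02 on the log2 scale (limma adjusted p = 0.000512). Eif4ebp1, a repressor of cap-dependent translation, rose by 0.48 (0.0426) and Rps6kb1, an S6 kinase, by 0.37 (0.0467). Of 8 transcription factors of ribosomal protein promoters, 0 passed in either fit (median -7.58e-05). Myc had 37.9, 43.0 and 33.3 FPKM in CHIR99021 replicates 1, 2 and 3, and 46.2, 32.6 and 32.6 FPKM in DMSO replicates 1, 2 and 3, with overlap and a change of 0.045 (limma adjusted p = 0.877). Of 76 mitochondrial ribosomal protein genes, 9 rose and 1 fell (30 and 2 with the block), with a median of 0.16, and 3 to 7 rose with a library left out. Mrpl38 rose by 0.72 (limma adjusted p = 0.00431).

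T cell and myeloid markers were low, the summed fibroblast markers lay above both in every library, and the part of these cells in the results was not tested. No T cell marker reached the threshold of the test, with summed levels of 0.0355 to 0.826 FPKM with CHIR99021 and 0.0319 to 1.54 FPKM with DMSO, and Cd3e and Cd8b1 at 0 in every library. The 7 myeloid markers summed to 2.48 to 7.04 FPKM with CHIR99021 and 6.63 to 8.05 FPKM with DMSO, with Cd14 at 0, and 1 of the 2 tested fell. The 7 fibroblast markers, which feeder cells may express, summed to 45.2 to 219 FPKM with CHIR99021 and 51.0 to 277 FPKM with DMSO, with replicate 1 the highest in both groups, and 0 of the 3 tested passed (2 fell with the block). Among all tested genes, 13.3% fell without the block and 24.4% with it. Most of that sum was Col1a1, a collagen chain, at 165, 65.3 and 33.3 FPKM in CHIR99021 replicates 1, 2 and 3, and 202, 69.2 and 36.2 FPKM in DMSO replicates 1, 2 and 3.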

How the data were processed

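The authors deposited 1 table per library with FPKM per gene entry and its confidence limits, per the file headers. Reads were processed with cutadapt 1.12, TopHat2 2.1.1 and Cufflinks 2.2.1 on the mm10 build, per the submitters' processing notes. The annotation, strand setting, treatment of reads with several matches and read depth were not given in the sources used here. By library, the confidence limits of the median member lay 1.82% to 2.42% from its FPKM, which covers single-library uncertainty only. FPKM is relative to the library, so a rise of some entries lowers others.

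On the log2(FPKM + 1) scale, the 10096 entries averaging at least 1 FPKM were tested for CHIR99021 against DMSO (3 libraries each) with limma 3.58.1 in R 4.3.3 (lmFit, eBayes with trend), two-sided, with Benjamini-Hochberg adjustment and a threshold of 0.05. The fit without the block was tried on simulated data with noise independent between libraries. That trial cannot show how the fit behaves when libraries of equal replicate number vary together. An exact permutation test of 3 against 3 cannot go below 0.1. No p-value was computed over a list. Python 3.11.15, pandas 2.3.3 and matplotlib 3.10.9 were also used.

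Replicate numbers paired the libraries: deviations from the group means correlated at 0.535, 0.490 and 0.517 between libraries of equal number, and between -0.352 and -0.140 otherwise. Such deviations cancel within a group, so the negative values at unequal numbers follow in part from the positive ones. Over the 79 members alone the same correlations were 0.767, 0.155 and 0.706 for equal numbers and between -0.751 and 0.373 otherwise, and CHIR99021 replicate 2 correlated more with DMSO replicate 3 (0.373) than with DMSO replicate 2. Values with the replicate block therefore stand beside those without. What a replicate number marks was not given in the sources used here, and p-values may in part measure technical spread.

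The members and lists were chosen with earlier results of these data known. The named genes were members called without the block, the 4 highest and 4 lowest, functional groups (P stalk, 5S particle, Rps6, Rpsa, Rpl10, Rps27a), paralogue pairs, and up to 4 called genes of each list. Rpl14, Rps29, Rpl35, Rpl12, Rpl28, Rpl37a, Rps13, the entries over the same span, Rps3a1, Myc and the other ribosomal components were named after their values were seen. Single values of a few genes are not reported here, and figures that name genes leave them out.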

Additional observations from a re-analysis of the deposited data

How the results depend on the processing

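The count of 3 ribosomal protein genes called higher was 1 without a filter on low values, 11 with quantile normalization, 10 with libraries scaled to the summed FPKM of other genes, and 52 with the replicate block, also when the overlapping entries were added in. Beside these, 821 of all 10096 tested genes were called higher in the main fit, and 627 of 16287 without the filter. Of the 10096, 1232 were with quantile normalization, 888 with scaling to other genes and 1855 with the block. Leaving out a library gave 0 to 2 members, beside 328 to 708 of all tested genes. In the same settings the 60S count of 1 was 0, 8, 7 and 33, it was 0 without the variance trend or with the entries added in, and it was 0 to 1 with a library left out. The 40S count of 2 was 1 without a filter and 19 with the block, and 0 to 1 with a library left out. Quantile normalization called 2 members lower, both 40S genes. It assigns values by rank, which fixes the highest entries. The median change of 0.18 was 0.23 with upper-quartile scaling (60S 0.24, 40S 0.22), 0.10 with quantile normalization (60S 0.11, 40S 0.096) and 0.22 with scaling to other genes (40S 0.21). Leaving out a library moved it to 0.062 to 0.28 (60S 0.085 to 0.29, 40S 0.048 to 0.28). Of all calls, 37.9% were higher as deposited, 48.7% with upper-quartile scaling and 51.2% with quantile normalization. The difference in share, 3.59 points, was 2.47 to 4.86 points with a library left out. Relative to the family median, the 3 higher and 3 lower became 12 and 12 with the block, 0 and 0 without the trend, and 5 and 5 with a minimum mean of 5 FPKM. The lower count was 5 with a pseudocount of 5 and 5 with entries added, and leaving out a library gave 1 to 5 higher and 0 to 5 lower.

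Counts of the lists moved as follows, and the block counts did not change when entries were added in. Of all 10096 tested genes, 1115 rose and 1174 fell with upper-quartile scaling, and 687 and 1261 without the trend. Quantile normalization gave 1232 and 1174, scaling to other genes 888 and 1140, and the block 1855 and 2466. Of 16287 tested without a filter, 627 rose and 1084 fell. A pseudocount of 5 gave 819 and 1340, and a minimum mean of 5 FPKM 762 and 1207 of 7302. Leaving out a library gave 328 to 708 rising and 733 to 1275 falling. Without a filter, elongation factors called higher were 2, chaperones 1, polymerase I genes 1 (and 0 lower), mTORC1 genes 0, and mitochondrial ribosomal genes 5 (and 0 lower). With upper-quartile scaling, 40S assembly factors were 9, polymerase I genes 7 (and 0 lower) and mitochondrial genes 17. With quantile normalization, other TOP genes were 6, 40S assembly factors 10, polymerase I genes 7 (and 0 lower) and mitochondrial genes 18 (and 0 lower). With scaling to other genes, other TOP genes were 5, chaperones 1, polymerase I genes lower 0, mTORC1 genes 1 and mitochondrial genes 14. Without the trend, chaperones were 1, 60S assembly factors 9, mTORC1 genes 0 and mitochondrial genes 4. A pseudocount of 5 left 0 polymerase I genes lower, and a minimum mean of 5 FPKM left 0 mTORC1 genes lower. With the block, other ribosomal components were 1, other TOP genes 10, chaperones 4, 40S assembly factors 10, 60S assembly factors 26 (and 1 lower), polymerase I genes 8 (and 2 lower) and mitochondrial genes 30 (and 2 lower). Leaving out a library, elongation factors were 0 to 2, chaperones 1 to 2, 40S assembly factors 2 to 5, 60S assembly factors 3 to 12 (lower 0 to 1), polymerase I genes 0 to 4 (lower 0 to 1), mTORC1 genes 0 to 1, mitochondrial genes 3 to 7 (lower 0 to 1), and other TOP genes 3 to 4 (lower 0 to 1).

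Of the values of single genes under another setting, 906 kept their direction and side of the threshold, 130 no longer passed, 40 newly passed and 13 changed direction. Directions changed for these members of small change or low level, and the cause was not tested. Over the fits that each left out a library, Rpl39l ran from -0.81 to 0.30, Rps27 from -0.19 to 0.26, Rps6 from -0.025 to 0.17, Rpl36a from -0.061 to 0.15 and Rpl39 from -0.20 to 0.11. Summed with Gm9846, Rps27 was at -0.065 with and without the block. With quantile normalization, Rplp2 was at -0.035, Rps6 at -0.058 and Rpl36a at -0.092.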
